A study of Homo sapiens with 48 samples.

Results

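The DEAD and DEAH box RNA helicases were followed in SW480 cells, a human colorectal cancer line, after depletion of 2 subunits of eIF2B. Members were all genes whose symbol begins with DDX or DHX and a digit. The rule found 48 genes of the 12256 in the data. Of these, 46 of 11145 genes were measured in ribosome-protected fragments (RPFs, the mRNA stretches covered by ribosomes), 47 of 11947 in total cytoplasmic RNA and 45 of 10836 in both. DDX3Y was measured in RPFs but not in total RNA, and DDX19A and DDX58 in total RNA but not in RPFs. The groups came from 3 pools of SW480 cells, each carrying an shRNA that doxycycline (DOX) switches on: shCTRL has no target, the hairpin of shEIF2B1 targets eIF2Bα and that of shEIF2B4 targets eIF2Bδ, with 1 hairpin a target. DOX was given at 1 µg/ml and its DMSO vehicle served as the uninduced state (+DOX and -DOX), both over 5 days. A week of culture gave 1 replicate of each of the 6 groups, and 4 weeks gave 24 lysates and 48 libraries. The lines are transduced pools rather than clones, and replicates are weekly repeats of the same pool. Because libraries were compared within weeks, p-values measure how far those differences varied from week to week.

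These helicases use ATP to bind, unwind and remodel RNA and the proteins on it, and are named after a conserved motif in the ATP-binding core. They act at nearly every step in the life of an RNA: ribosomal RNA processing in the nucleolus, splicing, mRNA export, translation initiation, storage and decay, and the sensing of viral RNA. eIF2B recharges the initiation factor eIF2 with GTP and thereby sets how much initiator tRNA reaches the ribosome.

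All values are on the log2 scale, and the files give no read counts, so the depth behind a value is unknown. A response is the change from -DOX to +DOX in a knockdown line minus the same change in shCTRL, given in log2 units with its standard error (SE). A gene was called when the p from limma, adjusted by the Benjamini-Hochberg method over every gene in the table, was under 0.1. Log2 TE is the log2 RPF level minus the log2 total RNA level of the same lysate.

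The targeted genes were checked first. Total RNA levels of EIF2B1 in the shEIF2B1 line were 8.19 to 8.38 in -DOX and 7.10 to 7.68 in +DOX, and the response was -0.67 ± 0.15 (SE, limma adjusted p = 0.0263). EIF2B4 levels in the shEIF2B4 line were 6.88 to 7.42 in -DOX and 6.47 to 6.68 in +DOX, with a response of -0.49 ± 0.14 (limma adjusted p = 0.0634). In neither line did the -DOX and +DOX libraries overlap in total RNA. In RPFs EIF2B1 responded to shEIF2B1 by -0.53 ± 0.13 (limma adjusted p = 0.0109), while EIF2B4 gave -0.48 ± 0.19 after shEIF2B4 and was not called (limma adjusted p = 0.236). EIF2B4 was already lower in -DOX shEIF2B4 than in -DOX shCTRL, by -0.42 ± 0.14 in RPFs (limma adjusted p = 0.0482), a difference that includes the lower level of all columns of this line. Of 11 markers of colorectal epithelium 6 were measured, among them KRT8, KRT18, KRT19 and EPCAM, while none of 4 fibroblast or 3 endothelium markers was in the tables, nor were KRT20, VIL1 and CDH17. Of 4 leukocyte markers CD68 was measured. All shEIF2B4 columns lay lower by a nearly constant amount, with a median over all genes 0.116 to 0.145 below the -DOX shCTRL library of the same week in RPFs. That offset cancels in changes within a line. In RPFs the -DOX shEIF2B4 library of replicate 1 stood apart for several helicases, and results that rest on it are given with and without it.

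Stretches of 30 coding bases around the motif that names the family are shown for the members that turn out lowest in RPFs and for members of another base composition, since the last base of the codons recurs in the results. The capitals mark the 12 bases that encode the motif. Coordinates are GRCh38 (GENCODE v29), the sequences run 5′ to 3′ on the coding strand, and each lies within 1 exon. These members were chosen after their values were seen.
DHX9, chr1:182867008-182867037, plus strand, exon 14: gtaattgtaGATGAAATACATgaaagagat
DHX15, chr4:24556314-24556343, minus strand, exon 4: ataattcttGATGAGGCTCATgagaggaca
DDX46, chr5:134790502-134790531, plus strand, exon 13: gttgttttaGATGAAGCAGACagaatgttt
DDX5, chr17:64503236-64503265, minus strand, exon 7: cttgtccttGATGAAGCAGATagaatgctt
DHX38, chr16:72104066-72104095, plus strand, exon 14: atcatcatgGACGAGGCCCACgagcgctcc
DHX37, chr12:124971359-124971388, minus strand, exon 8: gtgatcatcGACGAGGCCCACgagaggagc
DDX41, chr5:177513733-177513762, minus strand, exon 9: ctggccctgGACGAGGCTGACcgcatgatc
DDX39A, chr19:14410999-14411028, minus strand, exon 5: tttgtgctgGACGAGTGTGACaagatgctg
Of the 10 codons in each stretch, those ending in G or C numbered 0 in DHX9, 3 in DHX15, 2 in DDX46 and 2 in DDX5. The counts were 10 in DHX38, 10 in DHX37, 9 in DDX41 and 8 in DDX39A. Over the 35 members with a single motif hit inside 1 exon, the stretch held 0 to 10 such codons, with a median of 5.

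Levels were compared between members per kilobase, of coding sequence for RPFs and of transcript for total RNA, in -DOX shCTRL. In RPFs the highest levels were those of DDX39B, a splicing and export factor also known as UAP56, at 10.45 ± 0.15 (log2 per kb, SD, n = 4), of its paralog DDX39A at 9.67 ± 0.30 and of DDX56, a nucleolar helicase, at 9.38 ± 0.24. The SD ranges of DDX39A and DDX56 overlapped. The lowest were DHX57 at 3.27 ± 0.43 and DHX29, which helps scanning ribosomes through structured leaders, at 3.08 ± 0.25. The median member stood at the 43.4th percentile of all genes in RPFs and at the 58.8th in total RNA. In total RNA, DDX5 at 9.29 ± 0.12 and DDX17 at 9.23 ± 0.11, paralogs that act in splicing and transcription, followed DDX19A at 13.3 ± 0.47. DDX19A and DDX19B, paralogs that release proteins from mRNA as it leaves the nuclear pore, cannot be told apart well from another listed transcript, RP11-529K1.3. That transcript shares 89.3% of the 30-base coding windows of DDX19A and 63.4% of those of DDX19B. The motif stretch of DDX19A and DDX19B is the same.
DDX19A, chr16:70366192-70366221, plus strand, exon 8: tttgttctgGATGAGGCTGATgtcatgata
DDX19B, chr16:70329399-70329428, plus strand, exon 6: tttgttctgGATGAGGCTGATgtcatgata
Their values are therefore uncertain.

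After shEIF2B1, 19 of 46 helicases fell in RPFs and none rose, against 15.3% of all genes called lower, 12% called higher and 27.3% called in either direction. The median response was -0.35, compared with -0.01 over all genes, and 39 of 46 members lay below 0. The falls covered helicases of splicing (7 of 14 members), of mRNA export, translation and decay (7 of 11) and of ribosome biogenesis (5 of 16). Roles were assigned from general knowledge, with 1 role for each member, although some members act in more than 1. Neither of the 2 mitochondrial RNA helicases, DDX28 and DHX30, was called, nor was any of the 3 members outside these groups, DDX11, DDX20 and DHX32. Of the 19 called members, 8 stayed called whichever replicate was left out: DDX1, DDX5, DDX10, DDX18, DDX24, DDX46, DHX9 and DHX15. Without replicate 1 the call was kept by 8 members, against 8.28% of all genes called lower, and without replicate 4 by 9, against 7.59%. With no block for the week limma called 0 members (8 at an unadjusted p under 0.05), against 0.449% of all genes.

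**Figure D1:**
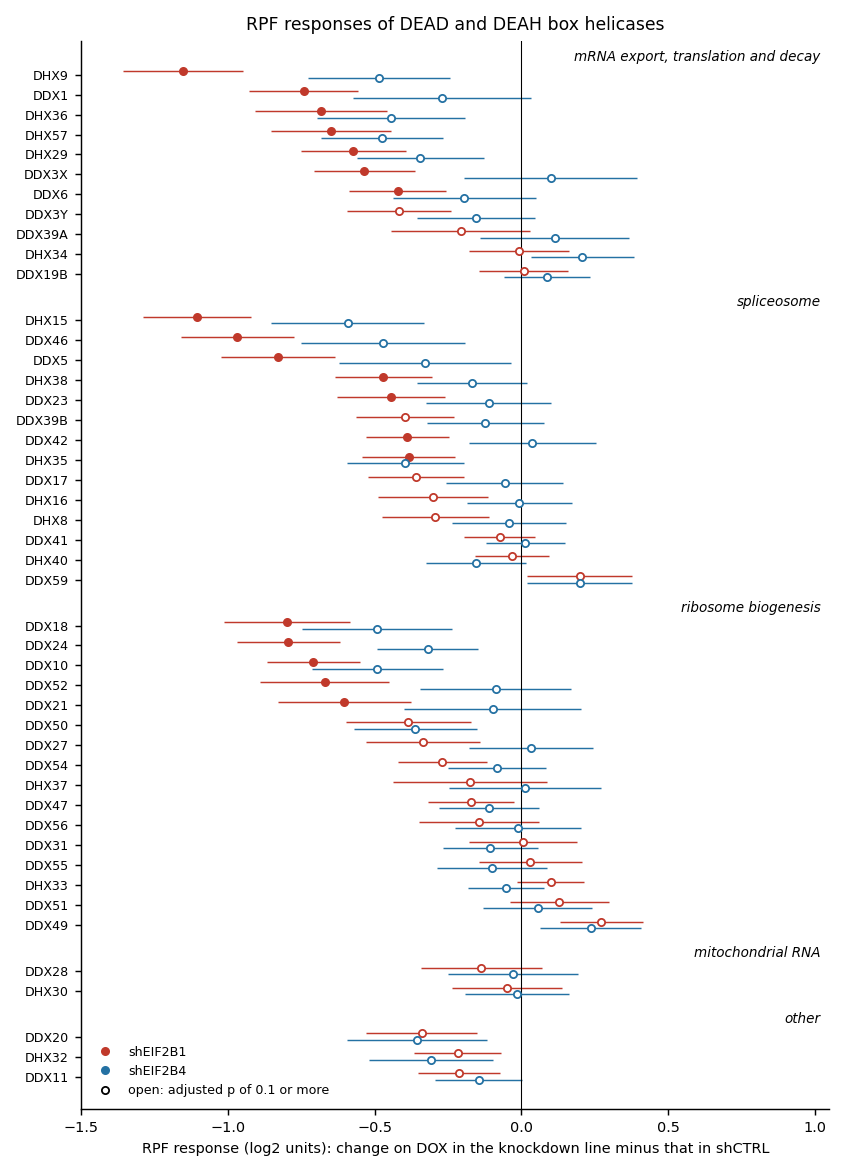
RPF response of 46 helicases to shEIF2B1 (red) and shEIF2B4 (blue), in log2 units, with bars of 1 SE from limma; members are grouped by role and filled points have an adjusted p under 0.1. The 19 filled points are all red and lie between -1.15 and -0.38, and no blue point is filled.

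Among helicases of export, translation and decay, DHX9 gave the lowest response. DHX9, also called RNA helicase A, unwinds structured RNA in transcription and translation. Its RPF levels in shEIF2B1 were 8.13, 8.71, 8.55 and 9.21 in -DOX (replicates 1 to 4) and 7.20, 7.24, 7.38 and 7.62 in +DOX. In shCTRL they were 7.42, 8.02, 8.11 and 8.74 in -DOX and 8.04, 7.57, 7.63 and 8.52 in +DOX. Every +DOX library of shEIF2B1 was below every -DOX library of that line, while the shCTRL groups overlapped. The response was -1.15 ± 0.21 (limma adjusted p = 0.00127), lower in 4 of 4 weeks.

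DDX1, a helicase of RNA transport granules and tRNA ligation, responded by -0.74 ± 0.19 (limma adjusted p = 0.0107) and DHX36, which resolves G-quadruplexes, by -0.68 ± 0.23 (limma adjusted p = 0.0420). DHX57, a little-studied relative of DHX36, responded by -0.65 ± 0.20 (limma adjusted p = 0.0339). The initiation helicases DHX29 and DDX3X responded by -0.57 ± 0.18 and -0.54 ± 0.17, and DDX6, a repressor of translation that sits in P-bodies, by -0.42 ± 0.17 (limma adjusted p = 0.0801). All of these were lower in 4 of 4 weeks except DDX6, which was lower in 3. DHX34, which acts in nonsense-mediated decay, gave -0.01 ± 0.17, DDX19B 0.01 ± 0.15 and DDX39A -0.21 ± 0.24. None of these 3 was called.

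Among spliceosomal helicases DHX15, which takes apart spent spliceosomes, had RPF levels in shEIF2B1 of 8.60, 9.42, 8.72 and 9.63 in -DOX and 7.68, 8.08, 7.97 and 8.26 in +DOX. In shCTRL its levels were 7.91, 8.59, 8.34 and 9.01 in -DOX and 8.36, 8.19, 8.19 and 9.17 in +DOX. Again the shEIF2B1 groups did not overlap and the shCTRL groups did. The response was -1.11 ± 0.18 (limma adjusted p = 0.000756). DDX46, the human Prp5, helps the U2 snRNP onto the branch site. Its RPF levels in shEIF2B1 were 7.32, 8.28, 7.44 and 8.38 in -DOX and 6.58, 6.84, 6.69 and 7.31 in +DOX. The shCTRL levels were 6.53, 7.51, 6.96 and 7.93 in -DOX and 7.10, 7.09, 6.75 and 7.85 in +DOX. The -DOX and +DOX values of shEIF2B1 did not overlap, although the nearest nearly met, while those of shCTRL overlapped, and the response was -0.97 ± 0.19 (limma adjusted p = 0.00293).

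DDX5 (p68) levels in shEIF2B1 were 9.39, 10.46, 9.62 and 10.43 in -DOX and 8.87, 9.19, 8.94 and 9.17 in +DOX. In shCTRL they were 8.94, 9.66, 9.14 and 9.98 in -DOX and 9.35, 9.29, 8.85 and 9.83 in +DOX. The +DOX libraries of shEIF2B1 were all below its -DOX libraries, and the response was -0.83 ± 0.19 (limma adjusted p = 0.00747). DDX17 (p72), the paralog of DDX5, gave -0.36 ± 0.16 and was not called (limma adjusted p = 0.129). The other called members of this role were DHX38, DDX23, DDX42 and DHX35, with responses from -0.47 to -0.38. DDX39B gave -0.40 ± 0.17, just short of a call (limma adjusted p = 0.102), and DDX41 -0.07 ± 0.12.

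In ribosome biogenesis DDX18 and DDX24, nucleolar helicases of the large subunit, both fell, DDX18 with a response of -0.80 ± 0.21 (limma adjusted p = 0.0154) and DDX24 with -0.79 ± 0.18 (limma adjusted p = 0.00555). RPF levels of DDX18 in shEIF2B1 were 8.14, 9.03, 8.39 and 9.21 in -DOX and 7.43, 7.63, 7.90 and 8.06 in +DOX. Those of shCTRL were 7.42, 8.37, 8.03 and 8.91 in -DOX and 8.02, 7.90, 7.72 and 8.54 in +DOX. For DDX18 the shEIF2B1 groups did not overlap, whereas the shCTRL ranges did. Levels of DDX24 in shEIF2B1 were 8.30, 8.66, 8.70 and 8.92 in -DOX and 7.85, 7.40, 8.10 and 7.78 in +DOX. In shCTRL they were 8.09, 8.11, 8.48 and 8.75 in -DOX and 8.37, 8.06, 8.20 and 8.52 in +DOX. For DDX24 too the groups were apart in shEIF2B1 and overlapped in shCTRL.

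DDX10 responded by -0.71 ± 0.16 (limma adjusted p = 0.00566), DDX52 by -0.67 ± 0.22 and DDX21, which binds RNA polymerase I transcripts and snoRNAs, by -0.60 ± 0.23 (limma adjusted p = 0.0671). The other 11 members of this role were not called and ranged from -0.39 for DDX50, the paralog of DDX21, to 0.27 for DDX49. Over all 46 members, 7 lay above 0, of which DDX49, DDX51, DDX31, DDX55 and DHX33 belong to this role. The annotated genes of DDX55 and EIF2B1 overlap, and DDX55 gave 0.03 ± 0.18.

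**Figure D2:**
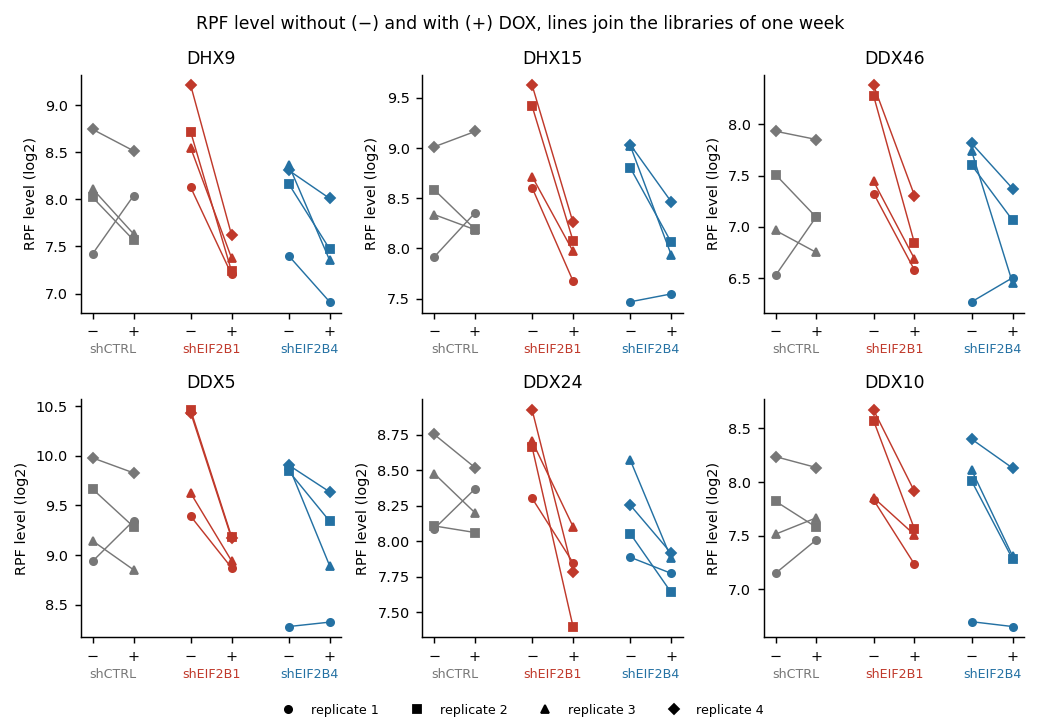
RPF level (log2) of 6 helicases in every library; each line joins the -DOX (−) and +DOX (+) library of a week, with shCTRL in grey, shEIF2B1 in red and shEIF2B4 in blue. All red lines fall, grey lines go both ways, and the blue circle of replicate 1 at -DOX is the lowest -DOX value in each panel.

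The weeks differed. The median RPF change on DOX over the helicases in shCTRL was 0.30 in week 1, then -0.38, -0.22 and -0.11 in weeks 2 to 4. In shEIF2B1 it was -0.24, -0.66, -0.17 and -0.60, and in shEIF2B4 0.04, -0.33, -0.49 and -0.05. Week 1 was thus the week in which the shCTRL helicases moved up. The median change over all genes stayed between -0.03 and 0.01 in every line and week. For 8 of 46 members all 4 weekly changes in shEIF2B1 lay below all 4 in shCTRL, compared with 10.2% of all genes: DDX5, DDX10, DDX18, DDX24, DDX46, DHX9, DHX15 and DHX35. The RPF change in shEIF2B1 was downward in 4 of 4 weeks for 30 of 46 members and for 27.2% of all genes.

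**Figure D3:**
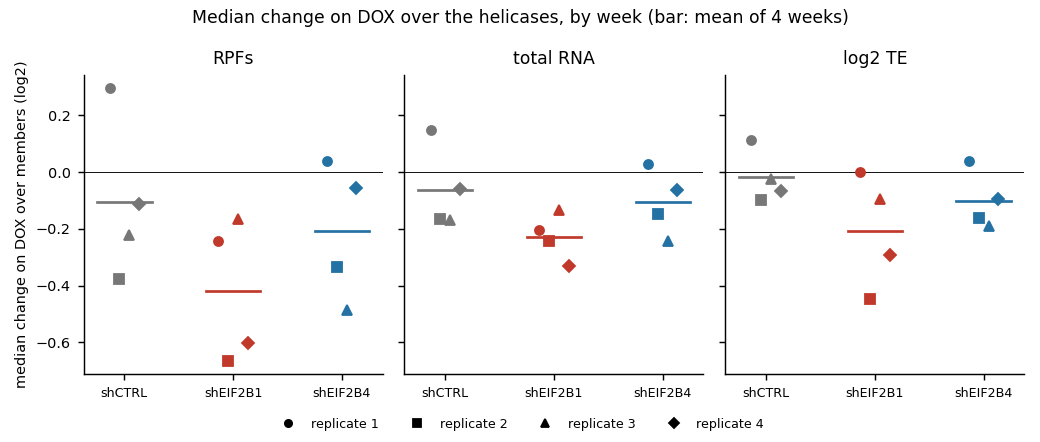
Median change from -DOX to +DOX over the helicases (log2 units) for each week and line, in RPFs (46 members), total RNA (47) and log2 TE (45); bars are means of 4 weeks. In RPFs the shEIF2B1 points lie between -0.66 and -0.17, and the shCTRL point of week 1 is at 0.30.

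The uninduced lines were not alike. In -DOX RPFs, 22 of 46 helicases were higher in shEIF2B1 than in shCTRL and none lower, against 25.3% of all genes called higher, 20.6% called lower and 45.9% either way. The median difference was 0.21, and the median over members lay above the shCTRL library of the same week by 0.17 to 0.39. DHX36 differed by 0.75 ± 0.16 (limma adjusted p = 0.00210). The difference was 0.65 ± 0.13 for DDX1, 0.63 ± 0.13 for DHX15 and 0.55 ± 0.11 for DDX10, with adjusted p from 0.00147 to 0.00184. EIF2B1 itself was lower by -0.45 ± 0.09 in these RPF libraries (limma adjusted p = 0.00188). Of the 19 helicases that fell after induction, 16 were among the 22 that started higher. Both counts use the -DOX libraries of shEIF2B1 and shCTRL, so they are not independent.

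When the +DOX lines were compared directly, without their -DOX libraries, 5 helicases were lower in shEIF2B1 than in shCTRL and 2 higher, against 4.88% of all genes lower and 5.71% higher. Of these 5, 4 were among the 19 that fell in the response, and DDX54 was not. DHX9 was lower by -0.58 ± 0.15 (limma adjusted p = 0.0195), DDX24 by -0.50 ± 0.12 (limma adjusted p = 0.0177) and DHX15 by -0.48 ± 0.13 (limma adjusted p = 0.0308). DHX38 and DDX54 were also lower, by -0.35 ± 0.12 and -0.34 ± 0.11, whereas DDX59 and DHX40 were higher, by 0.41 ± 0.13 and 0.29 ± 0.09. DHX36, at 0.07 ± 0.16, and DDX3X, at -0.05 ± 0.12, did not pass the test. In +DOX shEIF2B4, set against the same +DOX shCTRL libraries, 7 helicases were lower and none higher, against 16.7% of all genes lower and 3.04% higher, and the offset of the shEIF2B4 columns does not cancel there. DHX9 differed by -0.50 ± 0.17 (limma adjusted p = 0.0647), DDX24 by -0.48 ± 0.12 (limma adjusted p = 0.0166), DDX54 by -0.44 ± 0.12 (limma adjusted p = 0.0225) and DHX38 by -0.36 ± 0.13 (limma adjusted p = 0.0814). DHX15 gave -0.47 ± 0.18 and was not called (limma adjusted p = 0.101). How far the responses rest on the higher start in -DOX shEIF2B1 was not tested further. In total RNA none of 47 members differed between -DOX shEIF2B1 and shCTRL by limma, and 0.00837% of all genes were called (0.00837% higher, 0% lower). At an unadjusted p under 0.05 there were 2 members, against 4.54% of all genes.

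In total RNA, 1 helicase rose and 3 fell after shEIF2B1, against 2.34% of genes called higher, 1.13% called lower and 3.47% either way. DHX15 responded by -0.51 ± 0.11 (limma adjusted p = 0.0123), DDX24 by -0.48 ± 0.12 (limma adjusted p = 0.0403) and DHX9 by -0.45 ± 0.13 (limma adjusted p = 0.0755), and all 3 also fell in RPFs. Total RNA levels of DHX15 in shEIF2B1 were 9.80, 9.77, 9.65 and 9.89 in -DOX and 9.10, 9.09, 9.12 and 9.24 in +DOX. The shCTRL libraries held 9.50, 9.67, 9.55 and 9.77 in -DOX and 9.60, 9.32, 9.36 and 9.70 in +DOX. The shEIF2B1 groups were well apart, while those of shCTRL overlapped.

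DDX19B rose by 0.52 ± 0.15 (limma adjusted p = 0.0959). Its total RNA levels in shEIF2B1 were 7.17, 7.39, 7.42 and 7.49 in -DOX and 7.66, 8.24, 7.85 and 7.80 in +DOX, without overlap. The shCTRL levels were 7.47, 7.38, 7.79 and 7.45 in -DOX and 7.23, 7.84, 7.51 and 7.50 in +DOX. The median total RNA response of the 47 members was -0.17, compared with 0.00 over all genes, and 37 lay below 0. No single call held whichever replicate was left out: without replicate 1 or without replicate 4 no member was called, against 0.929% of all genes each time. Without replicate 3, 2 were called, against 1.74%.

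**Figure D4:**
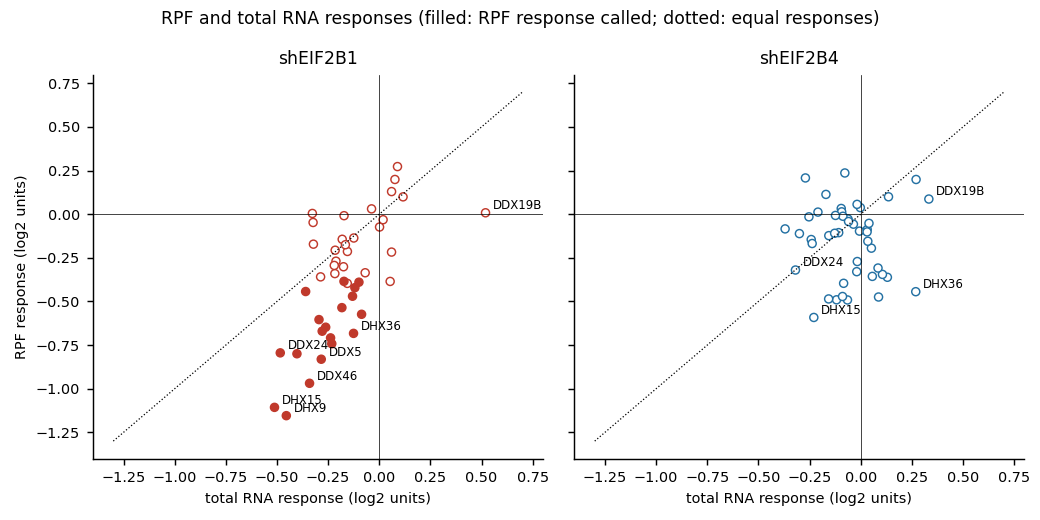
RPF response against total RNA response (both in log2 units) of the 45 helicases measured in both, for shEIF2B1 and shEIF2B4; filled points were called in RPFs and the dotted line marks equal responses. With shEIF2B1 the filled points lie below the dotted line, with DHX9 at -1.15 in RPFs and -0.45 in total RNA, and DDX19B lies to the right at 0.52.

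Log2 TE fell for 6 of 45 helicases after shEIF2B1 and rose for none, against 4.13% of genes called lower, 2.97% called higher and 7.1% either way. The median response was -0.21, compared with -0.02 over all genes. Log2 TE of DHX9 in shEIF2B1 was -1.48, -1.001, -1.16 and -0.76 in -DOX and -2.04, -1.81, -1.92 and -1.70 in +DOX. In shCTRL it was -1.96, -1.52, -1.36 and -1.04 in -DOX and -1.60, -1.64, -1.69 and -1.22 in +DOX. The shEIF2B1 groups did not overlap and the shCTRL groups did, and the response was -0.70 ± 0.17 (limma adjusted p = 0.0366).

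DDX46 responded by -0.63 ± 0.16 (limma adjusted p = 0.0418), DHX15 by -0.59 ± 0.17 (limma adjusted p = 0.0573) and DDX5 by -0.55 ± 0.16 (limma adjusted p = 0.0705). DDX1 responded by -0.51 ± 0.15 (limma adjusted p = 0.0691). Of the 6, these and DHX9 were also lower in RPFs. DDX19B, at -0.51 ± 0.17 (limma adjusted p = 0.0946), was the member whose RPF level was not called while its total RNA rose. Each of the 6 calls was lost when replicate 1, 3 or 4 was left out, and all 6 were kept without replicate 2. Of all genes 0%, 0.397% and 0.185% were called without replicates 1, 3 and 4, and 12.6% without replicate 2.

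After shEIF2B4 no helicase was called in RPFs, total RNA or log2 TE by limma. At an unadjusted p under 0.05 there were 3, 7 and 5 members, against 15.7%, 17.2% and 17.1% of all genes. Of all genes 2.75% were called in RPFs (1.88% higher, 0.87% lower), 5.4% in total RNA (3.78% higher, 1.62% lower) and 0.0923% in log2 TE (0.0646% higher, 0.0277% lower). The median RPF response was -0.11 and 35 of 46 members lay below 0. DHX15 gave -0.59 ± 0.26 (limma adjusted p = 0.277) and DHX57 -0.47 ± 0.21 (limma adjusted p = 0.270), the 2 smallest unadjusted p-values. RPF levels of DHX15 in shEIF2B4 were 7.47, 8.80, 9.03 and 9.04 in -DOX and 7.55, 8.06, 7.94 and 8.47 in +DOX. The -DOX library of replicate 1 lay far below the other 3, and in weeks 2 to 4 each +DOX library was below its -DOX partner. For DHX57 the levels were 5.25, 5.24, 5.51 and 5.50 in -DOX and 4.77, 4.90, 4.66 and 5.72 in +DOX, with the +DOX library of week 4 as the highest of all 8. In shCTRL DHX57 was at 5.18, 5.31, 4.89 and 5.92 in -DOX and at 5.49, 5.37, 5.17 and 5.74 in +DOX, and these groups overlapped.

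With the -DOX shEIF2B4 library of replicate 1 left out of the RPFs, 8 of 46 helicases were called lower and none higher, against 10% of all genes lower and 7.91% higher. The 8 were DHX15, DDX46, DDX10, DDX18, DHX36, DDX5, DDX1 and DDX50. DHX15 then gave -0.84 ± 0.20 (limma adjusted p = 0.0118) and DDX10 -0.70 ± 0.17 (limma adjusted p = 0.0174), while DHX9 gave -0.59 ± 0.23 (limma adjusted p = 0.103). In log2 TE the same step gave 9 of 45 lower and 1 higher, against 12.5% of all genes lower and 8.53% higher, with DHX36 at -0.87 ± 0.24 (limma adjusted p = 0.0335) and DHX34 as the member that rose, by 0.50 ± 0.16 (limma adjusted p = 0.0472). The library was chosen after its values were seen, and why it stands apart was not tested.

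With all libraries, log2 TE of DHX36 in shEIF2B4 was -2.32, -0.93, -1.07 and -1.01 in -DOX and -2.24, -1.76, -1.81 and -1.23 in +DOX, and the response was -0.71 ± 0.25 (limma adjusted p = 0.209). In shCTRL it was -2.71, -1.54, -2.18 and -0.98 in -DOX and -1.77, -1.60, -1.99 and -0.92 in +DOX, so both lines overlapped between -DOX and +DOX. Its total RNA went the other way, with levels of 8.37, 8.47, 8.30 and 8.47 in -DOX and 8.47, 8.69, 8.62 and 8.65 in +DOX and a response of 0.27 ± 0.10 (limma adjusted p = 0.149). Log2 TE of DHX34 in shEIF2B4 was 0.56, 0.04, -0.04 and -0.26 in -DOX and 0.57, 0.09, 0.10 and 0.20 in +DOX, with a response of 0.48 ± 0.16 (limma adjusted p = 0.181). The shCTRL values were 0.71, 0.33, 0.32 and 0.19 in -DOX and 0.65, -0.25, -0.06 and -0.05 in +DOX, again with overlap. Neither gene passed the test in these measures.

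The knockdowns were also compared with each other. No helicase differed in RPFs, total RNA or log2 TE by limma. At an unadjusted p under 0.05 there were 6, 12 and 5 members, against 6.4%, 12.8% and 6.14% of all genes. Of all genes 0.00897% differed in RPFs (0% higher and 0.00897% lower after shEIF2B1), 0.1% in total RNA (0.0586% higher, 0.0419% lower) and 0% in log2 TE. The RPF response of DHX9 was -1.15 after shEIF2B1 and -0.49 after shEIF2B4, a difference of -0.67 ± 0.22 (limma adjusted p = 0.746). For DDX3X the responses were -0.54 and 0.10, a difference of -0.64 ± 0.27 (limma adjusted p = 0.746). The responses share the shCTRL libraries, and 32 of 46 members lay below 0 in both. No member therefore separated the knockdowns at this threshold, which does not show that they act alike.

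Base composition differed among the members. GC3, the share of codons that end in G or C, ran from 32.3% to 82.6% over the 47 members with a coding sequence in GENCODE v29, with a median of 49.8% against 59.2% over all genes. Of the helicases with GC3 under 50%, 16 of 23 fell in RPFs after shEIF2B1, as did 35.1% of all such genes. At 50% and over it was 3 of 22, compared with 4.52% of all such genes. Those 3 were DDX24, DDX23 and DHX38, and in DHX38 all 10 codons of the stretch shown above end so. DHX9, with GC3 at 38.6% and 0 of 10 in its stretch, gave the lowest response. Members under 50% that were not called included DDX59 at 0.20 ± 0.18, DHX40 at -0.03 and DDX50, the lowest in GC3, at -0.39.

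Across the 45 members, GC3 and the RPF response to shEIF2B1 had a Spearman correlation of 0.60, close to 0.65 over 10848 genes. For the -DOX difference between shEIF2B1 and shCTRL it was -0.87, compared with -0.81 over all genes. In that comparison 20 of 23 helicases with GC3 under 50% were higher, as were 62.9% of all such genes. At 50% and over it was 1 of 22, compared with 4.97% of all such genes. For the log2 TE response to shEIF2B4 the correlation was 0.85 over 44 members. These correlations are across genes that share the same libraries and are given as a description. When the slope of log2 TE on GC3 was removed from each library, none of the 44 members was called in log2 TE after shEIF2B1 by limma, with 10 at an unadjusted p under 0.05, and 0.389% of all genes were. The log2 TE response of DHX9 was then -0.49 ± 0.16 (limma adjusted p = 0.199), that of DDX46 -0.40 ± 0.17 (limma adjusted p = 0.316) and that of DHX15 -0.37 ± 0.15 (limma adjusted p = 0.310). DDX5 gave -0.30 ± 0.17 (limma adjusted p = 0.452) and DDX19B -0.55 ± 0.16 (limma adjusted p = 0.168). Whether base composition accounts for the responses was not tested further.

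In shCTRL, which has no target, the number of helicases called on DOX depended on which weeks were used. In RPFs 1 member rose and 2 fell, against 5.23% of genes called higher, 4.62% called lower and 9.85% either way. DDX39A fell by 0.59 on the log2 scale (SE 0.18, limma adjusted p = 0.0848) and DHX34 by 0.42 (SE 0.12, limma adjusted p = 0.0729), while DHX32, a helicase of uncertain role, rose by 0.35 ± 0.11 (limma adjusted p = 0.0858). In total RNA DDX39A fell by 0.46 (SE 0.12, limma adjusted p = 0.0921) and DDX58 rose by 0.38 ± 0.10 (limma adjusted p = 0.0964), against 2.18% of genes lower, 2.27% higher and 4.44% either way. RPF levels of DHX34 in shCTRL were 7.50, 7.10, 7.35 and 7.26 in -DOX and 7.50, 6.36, 6.81 and 6.84 in +DOX, so that week 1 did not move. Without replicate 1, 22 members were lower and 2 higher in RPFs, against 15.1% of all genes lower and 16.6% higher, and in total RNA 11 were lower and 1 higher, against 10.4% and 10.1%. Leaving out any other replicate left none called in either by limma, with 2 to 4 at an unadjusted p under 0.05. Of all genes, 0.0269% to 0.0359% were then called in RPFs and 0.0251% to 1.39% in total RNA.

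In -DOX shEIF2B4 RPFs 4 members were lower than in shCTRL, against 22.7% of genes called lower, 3.87% called higher and 26.6% either way: DDX54 by -0.36 ± 0.12, DDX51 by -0.37 ± 0.13, DDX41 by -0.24 ± 0.10 and DHX37 by -0.45 ± 0.18. With every library centred on its own median none was called by limma, against 13% of all genes, with 5 members at an unadjusted p under 0.05. The constant offset of the shEIF2B4 columns lies in the same direction as the 4 lower members. Without the -DOX shEIF2B4 library of replicate 1 the comparison gave 8 members higher and 5 lower, against 12.1% of all genes higher and 34% lower.

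DDX58 (RIG-I) was the sensor of viral RNA among the members, and it was measured in total RNA. Its levels in shCTRL were 5.33, 5.04, 5.22 and 5.48 in -DOX and 5.35, 5.80, 5.65 and 5.79 in +DOX. In shEIF2B4 they were 5.98, 5.66, 5.50 and 5.77 in -DOX and 5.89, 5.64, 5.55 and 5.69 in +DOX. The -DOX shEIF2B4 libraries were all above those of shCTRL, by 0.46 ± 0.11 on average (limma adjusted p = 0.0515, against 0.569% of genes called higher, 1.12% called lower and 1.69% either way). The response to shEIF2B4 was -0.41 ± 0.15 (limma adjusted p = 0.163) and that to shEIF2B1 0.02 ± 0.17. Of 12 interferon-stimulated genes 9 were measured in total RNA, of which IFI6 fell after shEIF2B4 and none moved after shEIF2B1.

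RNA helicases outside the symbol rule and the cofactors that drive helicases were read beside the members. Of 18 other RNA helicases in RPFs after shEIF2B1, 3 fell and 1 rose, with a median of -0.24. Over all genes 15.3% fell and 12% rose, with a median of -0.01, so the count of these helicases that fell was near the background share. MTREX, the helicase of the nuclear exosome, gave -0.73 ± 0.21 (limma adjusted p = 0.0192), EIF4A2 -0.50 ± 0.14 (limma adjusted p = 0.0216) and YTHDC2 -0.37 ± 0.14 (limma adjusted p = 0.0743), while SKIV2L, the cytoplasmic exosome helicase, rose by 0.31 ± 0.12 (limma adjusted p = 0.0753). EIF4A1, the main helicase of the cap-binding complex, gave -0.27 ± 0.17 and was not called. In -DOX RPFs 6 of the 18 were already higher in shEIF2B1 than in shCTRL and 1 lower, against 25.3% and 20.6% of all genes. MTREX, EIF4A2, YTHDC2 and SKIV2L were all among those that differed. On DOX in shCTRL, EIF4A2 was called higher in RPFs and total RNA, with 5.23% and 2.27% of genes. Its total RNA response to shEIF2B1 was called lower, with 1.13% of genes. Of 36 cofactors 15 fell and none rose, with a median of -0.19, beside the same 15.3%, 12% and -0.01 over all genes. Before induction, in -DOX RPFs, 16 of the 36 were already higher in shEIF2B1 than in shCTRL and 2 lower. Over all genes 25.3% were higher and 20.6% lower there. CWC22 and LSM14A were among the cofactors that differed, and how far their falls rest on this start was not tested. CWC22, which brings EIF4A3 to the spliceosome, gave -0.85 ± 0.18 (limma adjusted p = 0.00380), EIF4H, which stimulates eIF4A, -0.53 ± 0.12 (limma adjusted p = 0.00656) and LSM14A, a partner of DDX6 in P-bodies, -0.53 ± 0.13 (limma adjusted p = 0.0115). After shEIF2B4, LSM14A was the cofactor that fell in RPFs, by 0.65 on the log2 scale (SE 0.15, limma adjusted p = 0.0319).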

How the data were processed

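Ribo-seq and total cytoplasmic RNA-seq libraries of the 24 SW480 lysates were used, grouped by the labels, and no sample was left out. Per the labels and the study's methods, the authors trimmed reads with cutadapt 1.18, aligned them with Bowtie2 to GENCODE v38 protein-coding transcripts (SAMtools 1.9, RSEM) and counted RPFs on the coding sequence of the most expressed transcript, and replicate 3 joins 2 runs. The values the authors deposited are on a log2 scale (2.02 to 16.1 for RPFs, 2.80 to 19.9 for total RNA) and look like regularized log2 values from DESeq2 by the authors, made separately for each assay. That transformation shrinks changes of weakly measured genes. No counts were used, so the depth per library is unknown and no counting error is given.

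Responses were fitted with limma 3.58.1 in R 4.3.3 to the 16 libraries of a knockdown line and shCTRL, with replicate as a block, shRNA, DOX and their interaction, and a mean-variance trend. The study's design has the same terms. Knockdowns were compared over 24 libraries and shCTRL over 8, and all tests were two-sided. The block was checked on the values: with condition means removed, same-numbered libraries correlated on average at 0.559 in RPFs, 0.183 in total RNA and 0.538 in log2 TE, and 52, 37 and 55 of 60 pairs exceeded 0.1. The procedure was tested on simulated data. Changes planted there were larger than most responses given above, so the recovery of smaller changes was not tested.

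The members, the lists and the tests were chosen with earlier results of these data known. Genes named with values were the fixed key members and, for each response, up to 5 called members per direction with the largest change whose direction held in 4 of 4 weeks, or the 2 smallest p-values where fewer than 2 were called, and up to 3 called members of the other comparisons. For 11 of them single samples are given, in the lines and measures a result turns on. Other members were named after their values were seen. The cofactor list leaves out PINX1 in RPFs, which has 2 entries. Coding sequences came from GENCODE v29 (97.3% of RPF genes), so GC3 and windows may differ from the v38 models, and DDX20 had no match. The motif was located by translating the coding sequence. Alternatives: no replicate block, no trend, the lowest 25% of genes left out, libraries centred on their medians, each replicate left out, 24 libraries in 1 fit, no shCTRL correction, changes per week, a threshold of 0.05 and removal of the GC3 slope. After the data were seen, a direct comparison of +DOX lines and the removal of 1 library were added.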

Additional observations from a re-analysis of the deposited data

Results flagged for a closer look

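The values of the 11 helicases given by sample were searched for a library far from the other 3 of its group by Dixon's test, over 126 groups. The search found 6, a share near the 1 in 20 that chance gives. Of these, 3 were the same RPF library, -DOX shEIF2B4 replicate 1. DDX5 was at 8.28 there and at 9.85 to 9.91 in the other 3, DDX46 at 6.27 against 7.60 to 7.81, and DHX15 at 7.47 against 8.80 to 9.04. All 3 have GC3 under 50%, and whether base composition or the preparation of that library has a part in this was not tested. DDX19B, which shares most of its coding windows with another transcript, was at 5.88 in RPFs of +DOX shEIF2B1 replicate 4 against 6.29 to 6.31, and at 5.71 in -DOX shEIF2B4 replicate 4 against 5.97 to 5.99. DDX18 was at 9.16 in total RNA of +DOX shEIF2B1 replicate 2 against 9.53 to 9.59.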

How the results depend on the processing

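Numbers of helicases called are given for each alternative that moved a count by over 1.5 times. The alternatives that moved the most calls were the removal of the replicate block, of the shCTRL correction and of replicate 1. With no replicate block, that is without pairing libraries by week, 0 members were called in the RPF response to shEIF2B1 (19 with it), in the shCTRL change (3), in uninduced shEIF2B1 (22) and in uninduced shEIF2B4 (4). Of all genes, no block left 0.449%, 0%, 0% and 0.0987% called in those RPF comparisons, in the same order, against 27.3%, 9.85%, 45.9% and 26.6% with it. In total RNA no block gave 1 for shEIF2B1 (4 with it) and 0 for shCTRL (2), and in log2 TE 0 for shEIF2B1 (6). There 1.6%, 0.0753% and 0% of all genes were left, against 3.47%, 4.44% and 7.1% with the block. With changes in the knockdown lines alone, not corrected for shCTRL, the counts rose to 37 (RPFs), 26 (total RNA) and 14 (log2 TE) for shEIF2B1, where 49.4%, 34.4% and 17.1% of all genes were called, and from 0 to 12, 18 and 3 for shEIF2B4, where 23.8%, 34.4% and 6.21% of all genes were. Tests on changes per week gave 11 in RPFs, 3 in total RNA and 2 in log2 TE for shEIF2B4, with 21.6%, 11% and 6.28% of all genes. Comparing +DOX lines directly gave 7 in RPFs for shEIF2B1, and 7 in RPFs and 7 in total RNA (6 lower, 1 higher) for shEIF2B4, where the lower offset of the shEIF2B4 columns does not cancel and 19.7% and 26.4% of all genes were called. There the difference of DDX58 in total RNA for shEIF2B4 was 0.0425, against a response of -0.41.

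At a threshold of 0.05, 0 were left in the RPF change of shCTRL, in RPFs of uninduced shEIF2B4, in the total RNA change of shCTRL and in total RNA of uninduced shEIF2B4, and 2 in total RNA and 2 in log2 TE for shEIF2B1. The shares of all genes called at 0.05 are not given, so these losses cannot be set against a background. Leaving out the lowest 25% of genes gave 1 in the total RNA change of shCTRL and 0 in total RNA of uninduced shEIF2B4, with 5.64% and 0.179% of all genes. Centring gave 0 in RPFs of uninduced shEIF2B4, with 13% of all genes. Fitting all 24 libraries gave 1 in log2 TE for shEIF2B1, and removing the GC3 slope 0, with 0.406% and 0.389% of all genes. With each replicate left out in turn, RPF counts ranged from 8 to 19 for shEIF2B1, 0 to 2 for shEIF2B4, 0 to 24 for shCTRL and 0 to 18 for uninduced shEIF2B4. The shares of all genes called ranged from 13.7% to 24.4%, 0.386% to 14.5%, 0.0269% to 31.6% and 0.0269% to 53%. Total RNA counts ranged from 0 to 5, 0 to 1, 0 to 12 and 0 to 1 in the same order, with 0.929% to 5.4%, 1.82% to 4.15%, 0.0251% to 20.5% and 0.41% to 0.854% of all genes. Log2 TE counts ranged from 0 to 12 for shEIF2B1 and 0 to 4 for shEIF2B4, with 0% to 12.6% and 0% to 13.1% of all genes. Leaving out the -DOX shEIF2B4 library of replicate 1 gave 8 in RPFs and 10 in log2 TE for shEIF2B4, and 13 in RPFs of uninduced shEIF2B4. Of all genes 17.9%, 21.1% and 46.1% were then called. The causes were not tested.

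For single genes, 371 alternatives over 32 results left 247 on the same side of the threshold, moved 108 below it and 15 above it with the same direction, and turned 1. With no counts in the files, how far depth limits these values is unknown.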
